A study of Homo sapiens with 4 samples.

Results

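Autophagy initiation and conjugation genes were followed in HCT116, a human cell line established from a colon cancer, after miR663a was overexpressed or inhibited. The set held 10 genes of 20307 with a gene symbol of their own: ULK1, ULK2, BECN1, ATG7, ATG12, ATG5, ATG16L1, MAP1LC3B, GABARAPL1 and SQSTM1. All probe sets carrying one of these symbols in the authors' deposited table were taken, 30 in all. The genes were chosen by measured values: single probe sets of ATG12 and ULK2 differed in the 2 comparisons described here. Those differences are therefore descriptions and support nothing further.

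Cells were transfected with the plasmid pcDNA3.1 carrying pri-miR663a, with empty pcDNA3.1, with a single-stranded inhibitor of miR663a or with single-stranded scrambled RNA, and each of these 4 groups was measured on 1 Affymetrix array. The overexpression array is set against the vector array, and the inhibitor array against the scrambled RNA array. The comparisons share no array. The titles of the inhibitor and scrambled RNA samples are swapped against their other labels, and by the titles every inhibitor difference given here would turn its sign. In the authors' deposited table the ratio header, inhibitor over control, goes with the other labels, and these were followed. With 1 array per group no test was possible, and a difference is read against the share of all probe sets that passed the same fold.

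Autophagy delivers cytoplasmic material to the lysosome inside double membranes. The ULK kinases start the process, and Beclin 1, encoded by BECN1, belongs to the lipid kinase complex that marks the forming membrane. A pair of conjugation reactions that resemble ubiquitination then join ATG12 to ATG5 and attach LC3 and GABARAP proteins to lipid, and SQSTM1 binds cargo and LC3 and is degraded with them. In colon cancer cells autophagy is known as a source of nutrients under stress.

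The overexpressed microRNA and those human microRNAs that share its seed are shown because the seed, bases 2 to 8 from the 5′ end, is the part that pairs with target transcripts. The sequences are from RefSeq on GRCh38.p14, with the seed in capitals. The mature miR-663a lies at chr20:26208243-26208264 on the minus strand, inside the microRNA gene MIR663A. Of 2370 mature human microRNA names in the table, 3 others had the same seed, and all 4 are printed here.
hsa-miR-663a: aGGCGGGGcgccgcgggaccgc
hsa-miR-1908-5p: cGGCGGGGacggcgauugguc
hsa-miR-6787-5p: uGGCGGGGguagagcuggcugc
hsa-miR-10396b-5p: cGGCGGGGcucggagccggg
The level of mature miR-663a was not analysed here, so neither transfection was checked at the microRNA itself. Target sites in the transcripts of the 10 genes were not analysed here either.

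By the bands in the authors' deposited table the genes lie on chromosomes 12 (ULK1 and GABARAPL1), 17 (ULK2 and BECN1), 3 (ATG7), 5 (ATG12 and SQSTM1), 6 (ATG5), 2 (ATG16L1) and 16 (MAP1LC3B). The genome build of its alignments is not named, so no positions are printed. Levels on the single arrays were at hand for 9 of the 30 probe sets, which belonged to ULK2, BECN1, ATG7, ATG12, ATG5 and SQSTM1. The other 21 had ratios only. Which probe sets had levels followed the order of their identifiers: sorted as text, the first 12704 identifiers with ratios all had levels and none of the later ones did. Array medians were taken over the 16381 probe sets with levels, not over the whole array. They were 4.19 for overexpression, 4.12 for vector, 4.16 for the inhibitor and 4.16 for scrambled RNA, on the log2 scale. Of the 9 probe sets, 6 lay above the median on all 4 arrays, and 3 (ULK2 1554112_a_at, BECN1 1561652_at and ATG7 1569827_at) lay below it on every array. As a check of the cell line, all 6 epithelial markers with levels, out of 7 listed, lay above the median on all arrays when each was taken by its brightest probe set, and 6 of their 9 probe sets did, among them EPCAM between 12.26 and 12.63. The leukocyte receptor PTPRC stayed below it on both its probe sets, at 1.84 to 2.34. The leukocyte markers CD3E and CD79A lay above the median on all arrays, up to 5.75. So did the fibroblast marker COL1A1, 1 of 4 listed, and the endothelial marker PECAM1, 1 of 3 listed, each by its brightest probe set. By the brightest probe sets, log2 levels were summed for each marker class, in the order overexpression, vector, inhibitor and scrambled RNA. The 4 leukocyte markers had 17.03, 15.84, 16.23 and 16.72, and 2 of the 4 were above the median on all arrays. The 4 fibroblast markers had 18.23, 18.46, 18.35 and 18.51. The 3 endothelial markers had 12.05, 11.90, 12.17 and 12.51, and the 6 epithelial markers had 58.07, 58.34, 58.18 and 58.73. The part of these differences in the results was not tested. In these bulk samples fewer expressing cells and less RNA per cell cannot be told apart.

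The autophagy probe sets past 1.5-fold were counted in each comparison beside the share of all probe sets. With overexpression, 1 of 30 was at least 1.5-fold lower, against 1.76% of all 42450 probe sets, and 0 of 30 were at least that much higher, against 1.77%. With the inhibitor, 1 of 30 was at least 1.5-fold higher, against 0.737% of all probe sets, and 1 was at least 1.5-fold lower, against 0.714%. At 2-fold 0 of 30 passed in either comparison, against 0.115% of all probe sets with overexpression and 0.0141% with the inhibitor. At a looser log2 threshold of 0.32, 8 of 30 passed with overexpression, against 21.0%, and 4 with the inhibitor, against 13.3%. These contrasts chose the genes, so nothing is read from the counts. The median log2 ratio of the 30 was -0.07 with overexpression, where all probe sets had -0.02, and -0.03 with the inhibitor, where all probe sets had -0.02. Log2 ratios below 0 were seen in 17 of the 30 in each comparison, against 52.6% of all probe sets with overexpression and 54.3% with the inhibitor. Taken by the median of its probe sets, 7 of the 10 genes lay below 0 with overexpression and 6 with the inhibitor, while 51.2% and 55.6% of all genes did.

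**Figure D1:**
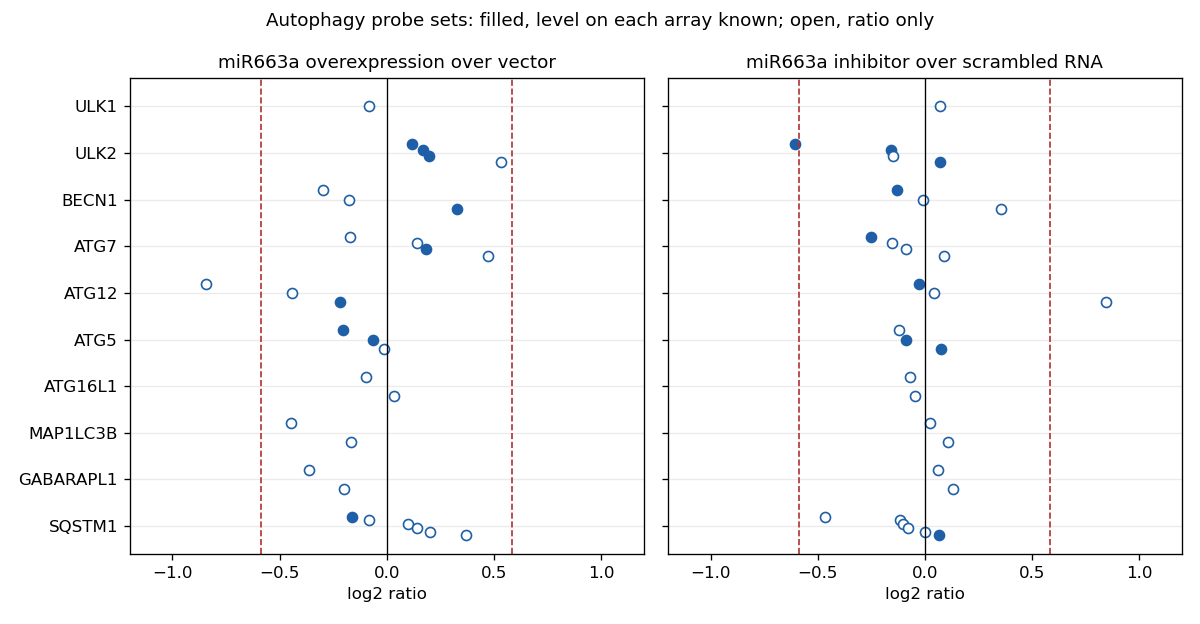
Log2 ratios of the 30 probe sets by gene, overexpression over vector on the left and inhibitor over scrambled RNA on the right, with 1 point per probe set and dashed lines at 1.5-fold. ATG12 has 1 probe set beyond the lines in both panels, on opposite sides, and ULK2 has 1 beyond them with the inhibitor.

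Of the initiating kinases, ULK1 had ratios close to 1 in both comparisons, so no direction is read from it. ULK1, the kinase that starts autophagosome formation, had a single probe set in the authors' deposited table, 209333_at, with ratios of 0.944 for overexpression over vector and 1.05 for inhibitor over scrambled RNA. Its paralog ULK2 had 4 probe sets. All 4 had overexpression log2 ratios above 0 in the authors' deposited table, from 0.12 to 0.53.

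ULK2 204063_s_at had log2 levels of 5.24 with overexpression and 5.08 with vector, and of 4.76 with the inhibitor and 5.36 with scrambled RNA. The inhibitor array was the lowest of the 4 and the scrambled RNA array the highest. Its level was thus 1.52-fold lower with the inhibitor, just past the threshold, and it fell short of 1.5-fold once the inhibitor ratios were centred on the median of all probe sets. With an offset of 64 on the linear scale its log2 difference was -0.21. Among 1442 probe sets whose mean level lay within 0.5 of its mean of 5.11, 16, or 1.11%, were at least 1.5-fold lower with the inhibitor. The levels of ULK2 204063_s_at overlapped those of the endothelial marker PECAM1, at 4.96 to 5.25. They also overlapped those of the leukocyte marker CD79A by its brightest probe set, at 5.32 to 5.75.

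ULK2 204062_s_at had log2 levels of 5.06 with overexpression and 4.94 with vector, and of 4.90 with the inhibitor and 5.06 with scrambled RNA. Its alignment in the authors' deposited table starts 1 base from that of 204063_s_at and ends at the same base, yet its log2 difference with the inhibitor was -0.16, against -0.61 on 204063_s_at. The dim 1554112_a_at had 3.97 with overexpression and 3.77 with vector, and 3.97 with the inhibitor and 3.90 with scrambled RNA, which puts the inhibitor array slightly above its control. The remaining probe set, 215154_at, aligned to a stretch of 3095 bases at one end of the gene and had ratios of 1.45 with overexpression and 0.903 with the inhibitor in the authors' deposited table. Among the 30 probe sets this 1.45 was the overexpression difference closest to 1.5-fold without reaching it. A lower ULK2 with the inhibitor therefore passed 1.5-fold on 1 of 4 probe sets, with 2 others below 0 and 1 above it.

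**Figure D2:**
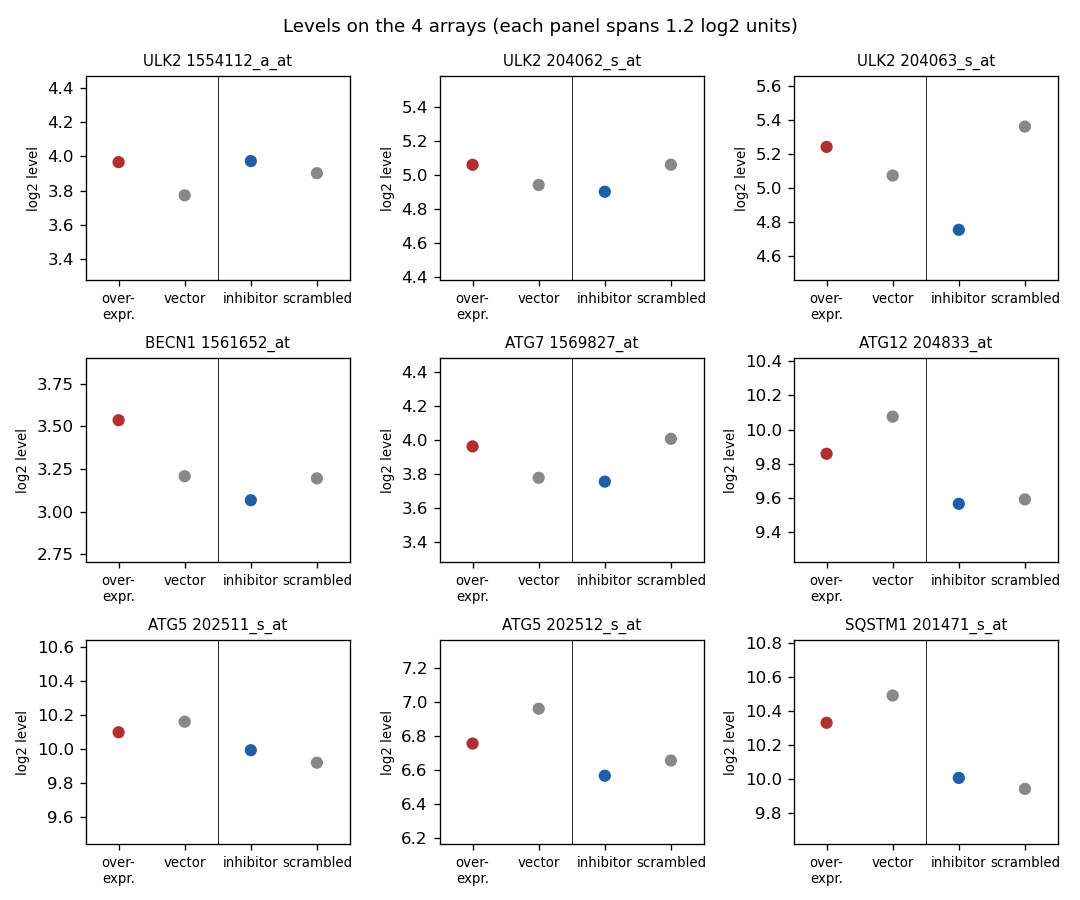
Log2 levels of the 9 probe sets with levels, 1 point per array, in the order overexpression, vector, inhibitor and scrambled RNA within each panel. ULK2 204063_s_at has its lowest value, 4.76, on the inhibitor array, while ATG12 204833_at and SQSTM1 201471_s_at are higher on both plasmid arrays than on both RNA arrays.

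BECN1, the scaffold of the class III PI3 kinase complex, had 3 probe sets. The pair spanning the gene, 208945_s_at and 208946_s_at, had overexpression ratios of 0.886 and 0.813 in the authors' deposited table. Their inhibitor ratios in the authors' deposited table were 0.994 and 1.28, and no member outside ATG12 had a higher inhibitor ratio than this 1.28. The remaining probe set, 1561652_at, aligned to 406 bases inside that span and was dim, with log2 levels of 3.54 with overexpression and 3.21 with vector, and 3.07 with the inhibitor and 3.19 with scrambled RNA. Its overexpression array was the highest of the 4, while the pair had overexpression ratios below 1. With an offset of 64 on the linear scale its log2 difference with overexpression was 0.05, against 0.33 without it.

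ATG7, the enzyme that activates both ATG12 and the LC3 family for conjugation, had 4 probe sets without a common direction. Overexpression ratios in the authors' deposited table were 1.39 on 222709_at, 1.10 on 224025_s_at and 0.887 on 218673_s_at. The same probe sets had inhibitor ratios of 1.06, 0.940 and 0.898 in the authors' deposited table. The dim 1569827_at had log2 levels of 3.96 with overexpression and 3.78 with vector, and 3.75 with the inhibitor and 4.01 with scrambled RNA.

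ATG12, the ubiquitin-like protein that is joined to ATG5, was lower with overexpression and higher with the inhibitor, the selection stated in the series' design text, on 1 of its 3 probe sets. On 213930_at the authors' deposited table gives an overexpression ratio of 0.557, which is 1.80-fold lower, and an inhibitor ratio of 1.79. Among all 42450 probe sets 75, or 0.177%, passed 1.5-fold in both comparisons in these directions. By the sample titles the same 75 would be lower in both comparisons. Since this probe set was a reason for the choice of the genes, its place among those 75 is a description.

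The other probe sets of ATG12 gave smaller overexpression differences in the same direction and inhibitor ratios near 1. For 213026_at, which aligns 759 bases away from 213930_at on chromosome 5, the authors' deposited table gives ratios of 0.736 with overexpression and 1.03 with the inhibitor. ATG12 204833_at had log2 levels of 9.86 with overexpression and 10.08 with vector, and of 9.56 with the inhibitor and 9.59 with scrambled RNA. Both plasmid arrays were above both RNA arrays on this probe set, and its log2 differences were -0.22 with overexpression and -0.03 with the inhibitor. The overexpression difference of this probe set was -0.08 after quantile normalization and -0.29 after array centring. The authors' deposited table places its alignment on chromosome 17 although the gene is on chromosome 5, and RefSeq lists a pseudogene of ATG12, ATG12P1, on chromosome 17. Which transcript this probe set detects was not examined.

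**Figure D3:**
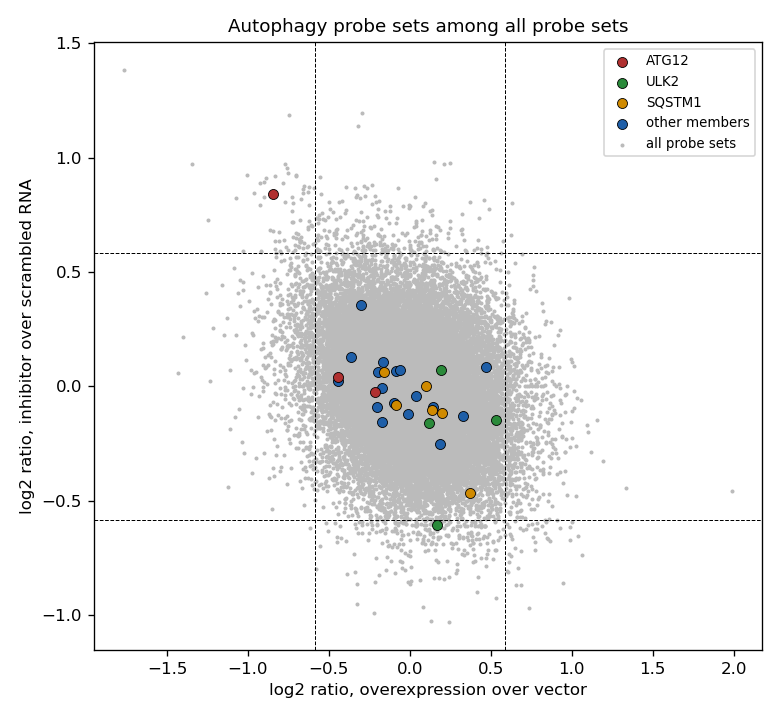
Log2 ratio of overexpression over vector (x axis) against that of inhibitor over scrambled RNA (y axis) for all 42450 probe sets (grey) and the 30 autophagy probe sets (coloured), with dashed lines at 1.5-fold. The ATG12 probe set 213930_at lies alone among the members in the upper left field, and the other ATG12 points lie near 0 on the y axis.

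The partners of ATG12 were close to their controls. ATG5, which accepts ATG12, had log2 levels on 202511_s_at of 10.10 with overexpression and 10.16 with vector, and of 9.99 with the inhibitor and 9.92 with scrambled RNA. On ATG5 202512_s_at they were 6.75 with overexpression and 6.96 with vector, and 6.57 with the inhibitor and 6.65 with scrambled RNA. The vector array was the highest on both. All 3 ATG5 probe sets had overexpression log2 ratios below 0 in the authors' deposited table, the lowest at -0.20, though 202511_s_at turned to 0.04 after quantile normalization and 210639_s_at turned positive when ratios were centred on the median of all probe sets. ATG16L1, which binds the conjugate and places it on membranes, had overexpression ratios of 1.02 and 0.935 and inhibitor ratios of 0.970 and 0.952 in the authors' deposited table.

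Among the ATG8 family genes, whose proteins are attached to lipid, MAP1LC3B and GABARAPL1 had overexpression ratios below 1 and inhibitor ratios above 1 on all their probe sets. The 7 probe sets of the other ATG8 family genes had median log2 ratios of 0.16 with overexpression and -0.10 with the inhibitor in the authors' deposited table. For MAP1LC3B, which encodes the marker protein LC3B, the authors' deposited table gives overexpression ratios of 0.891 on 208785_s_at and 0.734 on 208786_s_at. Inhibitor ratios on these were 1.08 and 1.02 in the authors' deposited table. The second of them is aligned there on chromosome 12, where RefSeq lists the near-identical gene MAP1LC3B2, and not on chromosome 16, where MAP1LC3B lies, so the source of its signal is uncertain. GABARAPL1, a relative of LC3, had overexpression ratios of 0.779 and 0.871 and inhibitor ratios of 1.09 and 1.04 in the authors' deposited table. A further probe set shared with the pseudogene GABARAPL3 had ratios of 0.950 and 1.03 in the authors' deposited table and was not counted. None of these reached 1.5-fold. Across the 30 probe sets, 10 were below 0 with overexpression and above 0 with the inhibitor, or 33.3%, where 28.0% of all probe sets were. The opposite signs were seen in another 10, where 29.8% of all probe sets had them.

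SQSTM1, the cargo receptor, had 6 probe sets, more than any other member. The one with levels, 201471_s_at, had log2 levels of 10.33 with overexpression and 10.49 with vector, and of 10.01 with the inhibitor and 9.94 with scrambled RNA. Its differences within each comparison were -0.16 and 0.06, smaller than the distance between the plasmid and the RNA arrays. For 213112_s_at the authors' deposited table gives ratios of 0.943 and 0.946. The other 4 had overexpression ratios above 1 in the authors' deposited table, from 1.07 to 1.29. The widest of them, 244804_at, which aligns to 394 bases inside the gene, had 1.29 with overexpression and 0.725 with the inhibitor in the authors' deposited table. At 1.38-fold lower, this was the largest inhibitor difference among the members short of 1.5-fold. The 2 probe sets 217252_at and 217255_at have no alignment in that table.

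Signal moved with the overexpression ratio across the arrays. Among probe sets with levels, the median overexpression log2 ratio was -0.06 for the 7204 above the median on all 4 arrays and 0.08 for the 4813 at or below it on all 4. The 3 dim member probe sets had overexpression differences of 0.20 (ULK2), 0.33 (BECN1) and 0.18 (ATG7), and the part of signal in these was not tested. With the inhibitor both medians lay near 0, at -0.02 and -0.03.

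A further difference, between the plasmid and the RNA transfections, had no part in the choice of the genes. It is the mean log2 level of the overexpression and vector arrays minus that of the inhibitor and scrambled RNA arrays. Its size, without its sign, also follows from the ratios and the sum of squares of each probe set in the authors' deposited table. For 6705 probe sets with levels and a difference of at least 0.1, both ways of computing it agreed to within 9.26e-05. By this measure 2 of the 30 probe sets differed by at least 1.5-fold, or 6.67%, against 0.956% of all 42450. These were 1 of 3 probe sets of ATG12 and 1 of 6 of SQSTM1. The share also differed with signal among probe sets with levels. It was 1.14% for those above the median on all 4 arrays and 0.145% for those at or below it on all 4. The median size was 0.17 for the members and 0.11 for all probe sets. In 13 of the 30 it was larger than both ratios of the study's comparisons, while 25.1% of all probe sets showed this.

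The largest sizes, computed from the authors' deposited table, were 0.68 on ATG12 213026_at, 0.67 on SQSTM1 213112_s_at and 0.57 on MAP1LC3B 208786_s_at, all without a known direction. Where the direction is known, SQSTM1 201471_s_at averaged 10.41 on the plasmid arrays and 9.97 on the RNA arrays, a difference of 0.44. ATG12 204833_at averaged 9.97 on the plasmid arrays and 9.58 on the RNA arrays, a difference of 0.39. ATG5 was likewise higher on the plasmid arrays, by 0.17 on 202511_s_at and 0.25 on 202512_s_at. The dim BECN1 1561652_at was higher by 0.24. On these 5 of the 9 probe sets both plasmid arrays lay above both RNA arrays, while 18.2% of the 12704 probe sets with levels showed this. That share was not split by signal, and 6 of the 9 lay above the median on all 4 arrays. ATG12 204833_at is the probe set aligned on chromosome 17 and may not report ATG12. The 3 ULK2 probe sets with levels had differences of only -0.07, 0.02 and 0.10. Of all probe sets with levels, 0.645% were at least 1.5-fold higher with plasmid and 0.220% at least 1.5-fold lower, and none of these 9 was. The kind of nucleic acid and any difference in handling between the plasmid and RNA transfections cannot be told apart.

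**Figure D4:**
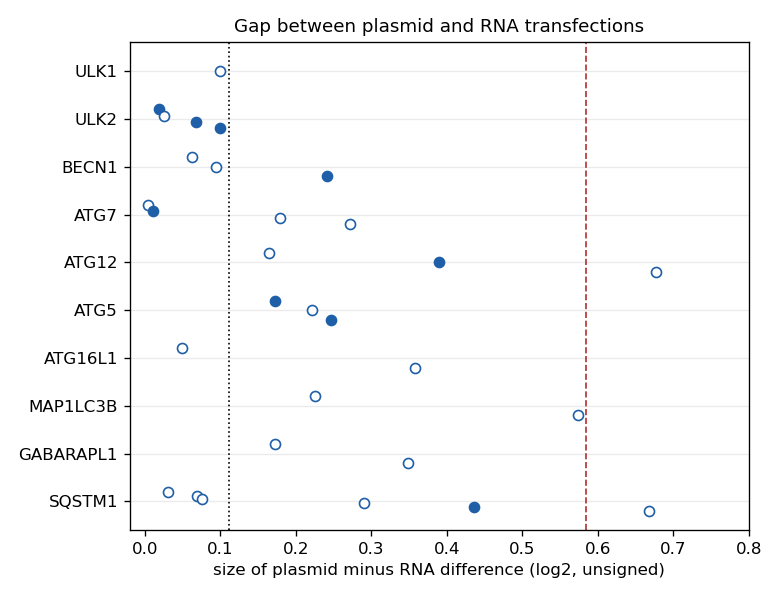
Unsigned log2 difference between the mean of the plasmid arrays and the mean of the RNA arrays for the 30 probe sets by gene, filled where levels are known and open where the size was computed from the authors' table. The dotted line is the median of all probe sets, 0.11, and the dashed line is 1.5-fold, which 1 probe set each of ATG12 and SQSTM1 exceeds.

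The rest of the pathway was read from a list of 42 further autophagy genes, of which 41 were measured, by 104 probe sets. With overexpression 3 of the 104 were at least 1.5-fold lower, against 1.76% of all probe sets, and 1 was at least 1.5-fold higher, against 1.77%. With the inhibitor 1 was at least 1.5-fold higher, against 0.737%, and 0 were at least 1.5-fold lower, against 0.714%. The median log2 ratios of the list were -0.04 and -0.01, where all probe sets had -0.02 in both comparisons. With overexpression 62.5% of the 104 had log2 ratios below 0, against 52.6% of all probe sets. With the inhibitor 52.9% did, against 54.3%.

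RB1CC1, which encodes the scaffold FIP200 of the ULK kinase complex, was one of the lower genes. Its probe set 202034_x_at had log2 levels of 7.70 with overexpression and 8.40 with vector, and of 8.42 with the inhibitor and 7.92 with scrambled RNA. It was thus 1.62-fold lower with overexpression. After quantile normalization it fell short of the threshold, at a log2 difference of -0.57, and after array centring it stood at -0.765. The other RB1CC1 probe set, 202033_s_at, had 9.04 with overexpression and 9.32 with vector, and 9.32 with the inhibitor and 9.02 with scrambled RNA. On both, the overexpression array was below its control and the inhibitor array above its control.

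For each of the remaining genes 1 probe set passed 1.5-fold and the others did not. AMBRA1, a Beclin 1 regulator, was 1.53-fold lower with overexpression on 52731_at of the authors' deposited table, with an inhibitor ratio of 1.39, while its other 3 probe sets had overexpression ratios from 0.692 to 0.976 and inhibitor ratios from 0.761 to 0.959. WIPI2, which binds the lipid made by the class III kinase, had an overexpression ratio of 0.649 on 214699_x_at and of 0.813 to 1.06 on its other 4 in the authors' deposited table. TFEB, a transcription factor for lysosomal genes, had overexpression ratios of 1.60 on 221866_at and 1.02 on 50221_at in the authors' deposited table. TAX1BP1, a cargo receptor, had an inhibitor ratio of 1.63 on 213786_at, with 0.854 and 1.09 on the other pair, in the authors' deposited table.

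The conjugation enzymes and proteases and the other ATG8 family genes had no probe set past 1.5-fold in either comparison. Among conjugation enzymes and proteases in the authors' deposited table, ATG10, which transfers ATG12 to ATG5, reached -0.44 with overexpression on 223677_at, and ATG3, which transfers LC3 to lipid, reached 0.33 with the inhibitor on 220237_at. For the ATG8 family the largest log2 ratios in the authors' deposited table were 0.54 for MAP1LC3C with overexpression, on 221697_at, and 0.37 for the LC3B copy MAP1LC3B2 with the inhibitor, on 234238_at. With the inhibitor, the largest log2 ratios of the remaining classes in the authors' deposited table were 0.50 for RB1CC1, -0.48 for RUBCN, a Beclin 1 complex inhibitor, 0.44 for WIPI1 and 0.42 for the fusion protein STX17. With overexpression NBR1, a cargo receptor, had the largest difference of the receptors, at -0.44 on 201384_s_at.

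**Figure D5:**
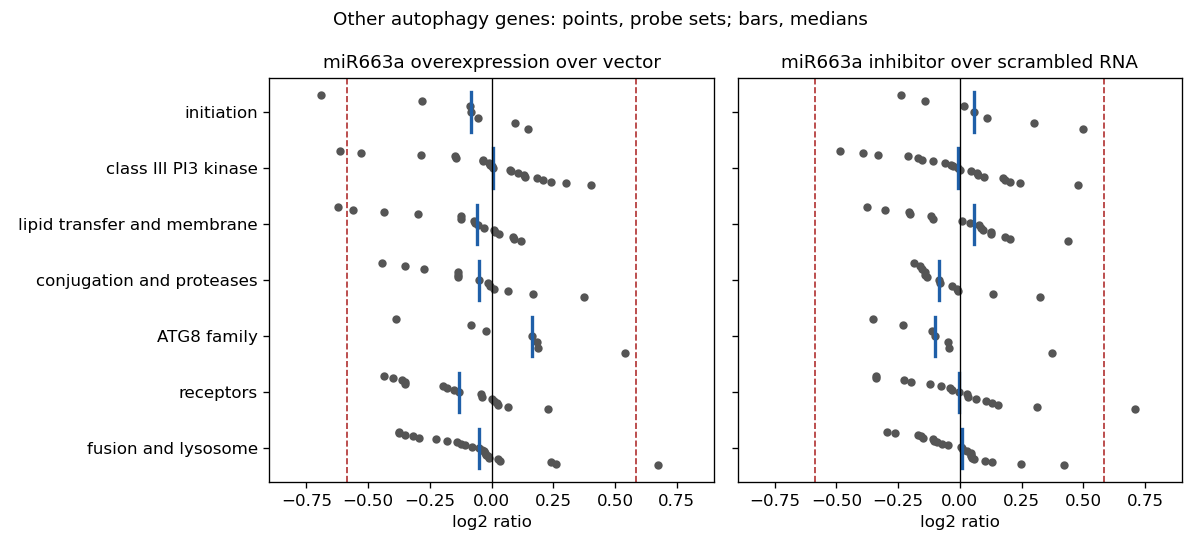
Log2 ratios of the 104 probe sets of 41 further autophagy genes by class, overexpression over vector on the left and inhibitor over scrambled RNA on the right, with points for probe sets, bars for class medians and dashed lines at 1.5-fold. Class medians lie between -0.13 and 0.16 with overexpression and between -0.10 and 0.06 with the inhibitor.

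The probe sets most like ULK2 and ATG12 over the 4 arrays were sought by the Euclidean distance between levels centred on their own mean. Candidates were the 7075 probe sets above the median on all arrays that were not shared between gene symbols. Nearest to ULK2 204063_s_at were PIGR, the epithelial immunoglobulin receptor, at 0.037, OGG1, a DNA repair glycosylase, at 0.083, and ITGB4, an integrin, at 0.085. Their log2 differences with the inhibitor were -0.57, -0.52 and -0.58. Nearest to ATG12 204833_at were MIER3 at 0.025, ZNF134 at 0.037 and EPHA2, an ephrin receptor, at 0.048, which were higher on the plasmid than on the RNA arrays by 0.40, 0.38 and 0.40. ATG12 204833_at is the probe set aligned on chromosome 17 and not on chromosome 5, so these may not be neighbours of the ATG12 transcript. ATG12 213930_at has no level and could not be compared. Over 4 arrays such nearness is a description only.

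The promoters of the genes, taken from RefSeq on GRCh38.p14 as 250 bases before and 50 after each gene's start, were found for all 10 genes as 13 windows. The GC box, GGGCGG on either strand, was in 9 of the 13 windows, those of 7 genes without ULK2, BECN1 and ATG12, and in 45.0% of all 35116 windows. The motif CACGTG, bound by TFEB among others, was in 0 of the 13 windows and in 7.26% of all windows. GC content of the 13 windows ran from 27.7% to 78.3%, with a median of 67.0%, against 58.7% for all. These matches describe letters in the windows and were not set against binding data.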

How the data were processed

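Per the labels, total RNA of HCT116 cells was hybridised to 4 arrays. The authors deposited log2 levels of 16381 probe sets per array. MAS5 is named in the submitters' processing notes, and the sources used here do not give background correction, normalization or genome build. The authors also deposited linear ratios for 42450 probe sets, with a score per probe set. This score is the squared spread of the 4 log2 values around their mean, summed, and the size of the plasmid and RNA difference was computed from it. For shared probe sets, log2 ratios and level differences agreed within 9.87e-05.

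Groups follow the source, description and genotype labels. Titles of the inhibitor and scrambled RNA arrays are swapped against these, while the file header gives the ratio as inhibitor over control. The turned sign was an alternative. Counts used 1.5-fold. With 1 array per group, no p-value was computed and the number of arrays limits the precision. Named genes were the 10 members, further autophagy genes past 1.5-fold or with the largest difference per class and comparison, and the 3 nearest genes to ULK2 and ATG12. In the further list 3 genes were matched by older symbols. Members and lists were chosen with earlier results of these data known. Python 3.11.15, numpy 2.4.6, pandas 2.3.3 and matplotlib 3.10.9 were used, and the calculation was tested on simulated data.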

Additional observations from a re-analysis of the deposited data

How the results depend on the processing

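No paired analysis was possible because each group has 1 array. At 2-fold, 0 member and 0 further probe sets passed in either comparison. At a log2 threshold of 0.32, 8 of the 30 member probe sets passed with overexpression (4 higher, 4 lower) and 4 with the inhibitor (2 and 2). Of the 104 further probe sets, 21 passed with overexpression (4 higher, 17 lower) and 14 with the inhibitor (7 and 7). Of all probe sets, 21.0% passed with overexpression (4408 higher, 4494 lower) and 13.3% with the inhibitor (2528 and 3122). Centring the inhibitor ratios on the median of all probe sets left 1 member probe set, that of ATG12, since that of ULK2 then fell short of 1.5-fold. Without probe sets ending in _s_at or _x_at, which may bind several transcripts, 1 member probe set passed with the inhibitor, that of ATG12. With overexpression 2 further probe sets passed. Among the 6 member probe sets above the median on both arrays, 0 passed with overexpression and 1, ULK2 204063_s_at, with the inhibitor. ATG12 213930_at has no level, so its signal is unknown. Turning the inhibitor sign as the titles read keeps the counts at 2 member probe sets and 1 further probe set. ATG12 is then lower, ULK2 higher and TAX1BP1 lower. Naming through RefSeq accessions, centring of the overexpression ratios and 2 choices made after seeing the data (adding the probe set shared with GABARAPL3, leaving out those aligned elsewhere or not at all) left the member counts as they were. Of the 9 probe sets with levels, 1, ATG5 202511_s_at, changed the sign of its overexpression ratio after quantile normalization and 0 changed sign after array centring or an offset of 64. That offset took ULK2 204063_s_at with the inhibitor to a log2 difference of -0.21, short of 1.5-fold, and BECN1 1561652_at with overexpression to 0.05.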
